A study of Arabidopsis thaliana with 12 samples.

Results

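The transcriptome of wild type (WT) Arabidopsis seedlings at the end of a night was compared with that of WT seedlings that had been given light in place of that night. The comparison rests on all WT arrays of the series, 6 of 12, which the labels place in short days (SD) or in continuous light (LL). The WT is the accession Col-0. Whole seedlings were 3 days old and had been grown for 2 days under SD, each with 16 h of darkness and 8 h of white light at an intensity of 85 µmol per square metre per second. WT SD seedlings spent the next day in SD as well and were collected at 24 h, at dawn. WT LL seedlings stayed in the same white light for that day and were collected at the same hour, at subjective dawn. Both groups were kept on medium without sucrose, and each had 3 biological replicates with 1 array each. The other 6 arrays hold *pifq* seedlings in SD and in LL, 3 of each, and *pifq* is mutated in the 4 genes *PIF1* (AT2G20180), *PIF3* (AT1G09530), *PIF4* and *PIF5* (AT3G59060). The absence of light at the time of collection and the smaller amount of light received over the last day go together in WT SD and cannot be told apart in this comparison.

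In darkness phytochromes return to their inactive form, and PHYTOCHROME-INTERACTING FACTORs (PIFs) accumulate and activate genes of elongation growth. At the same time photosynthesis stops, and the seedling lives on starch, and later on protein, lipid and amino acids, which are taken apart in mitochondria and peroxisomes. The circadian clock keeps running in both conditions, and light resets it at dawn and dusk.

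Expression is given as the log2 signal of a probe set, as the authors normalized it, so that a difference of 1 is a change of 2 fold. The log2 FC is always the mean of the WT SD arrays minus the mean of the WT LL arrays, with the standard error (SE) of the fitted difference and n = 3 arrays per group. A probe set was called where the change was at least 1.5 fold and its adjusted p in limma (Benjamini-Hochberg) under 0.05, and "rose" and "fell" are used for called genes only. The WT arrays correlated with each other by 0.960 to 0.983. The first principal component of these arrays held 37.4% of the variance and separated WT SD from WT LL. The second held 20.4%, with WT SD replicate 2 at one end and WT SD replicate 1 at the other. The replicates of WT SD were more spread than those of WT LL, with a median SD over probe sets of 0.219 in WT SD and 0.176 in WT LL.

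Of 38113 probe sets tested, 1206 (3.16%) were higher in WT SD and 1307 (3.43%) were lower, 2513 together (6.59%). On all 2513 the 3 WT SD arrays lay apart from the 3 WT LL arrays, which over all probe sets was so for 13.8% with WT SD higher and 14.4% with WT SD lower. Changes of at least 2 fold were called for 429 probe sets that rose and 511 that fell, changes of at least 4 fold for 42 and 70, and changes of at least 8 fold for 4 and 10. The larger changes were thus more often falls. Leaving out WT SD replicate 2, which stands apart, left 981 higher and 1020 lower. In the fit with all arrays and in each of the 12 fits without 1 array, 766 probe sets were called higher and 802 lower. Calls were more frequent among bright probe sets. Of the dimmest probe sets, with mean signals of 1.51 to 3.44, 0.693% were called, and of an equal share at the bright end, with 6.99 to 14.82, 14.5%. The median SD between replicates of the dim probe sets was 0.358 in WT SD and 0.290 in WT LL, and that of the bright ones 0.113 in WT SD and 0.104 in WT LL.

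**Figure D1:**
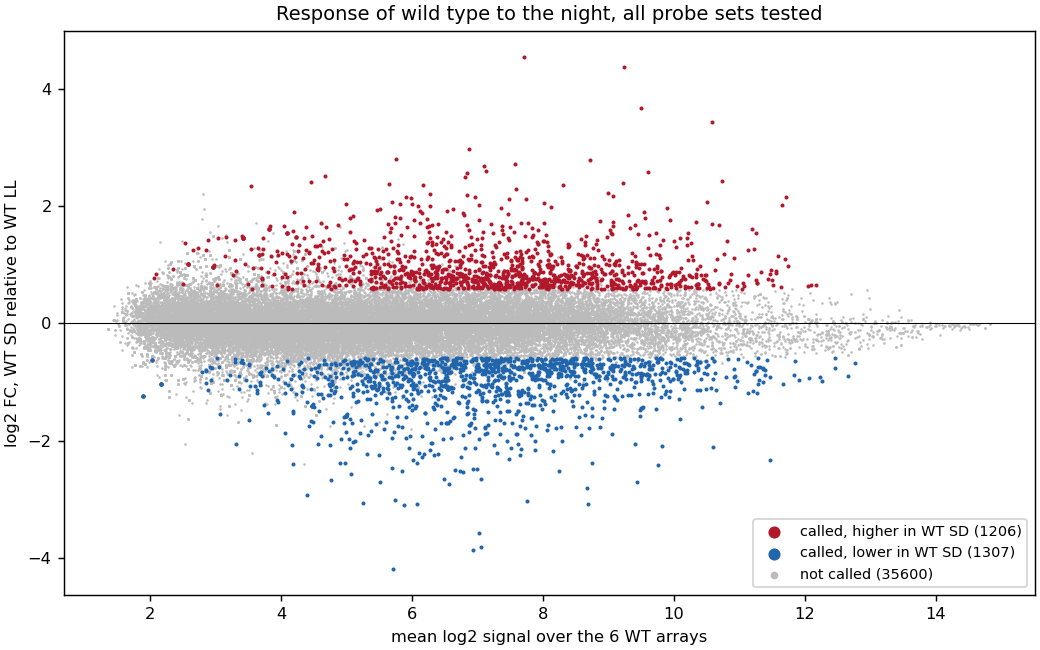
Each point is 1 of the 38113 probe sets tested. The x axis is its mean log2 signal over the 6 WT arrays, the y axis its log2 FC, WT SD over WT LL; red points (1206) were called higher, blue points (1307) lower and grey points not called. Few calls lie at signals under 4, and the farthest point below 0, at -4.19, is nearer to 0 than the farthest point above it, at 4.55.

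The largest rise of a named gene was that of *ST2A* (AT5G07010), a sulfotransferase that acts on hydroxyjasmonates. Its signal was 10.30, 9.82 and 9.86 on the WT SD arrays, against 5.50, 5.26 and 5.56 on the WT LL arrays. WT SD was 23.5-fold higher, with a log2 FC of 4.55 ± 0.16 (adjusted p = 9.02e-07). Next came *BCAT-2* (AT1G10070), a mitochondrial aminotransferase of branched-chain amino acids, with 11.24, 11.50 and 11.53 on the WT SD arrays, against 6.96, 6.75 and 7.42 on the WT LL arrays. Its log2 FC was 4.38 ± 0.22 (adjusted p = 6.27e-06), a change of 20.8 fold. *XTH15* (AT4G14130), a xyloglucan endotransglucosylase that remodels the growing cell wall, was at 12.30, 12.33 and 12.27 on the WT SD arrays, against 8.91, 8.67 and 8.99 on the WT LL arrays. The 3 WT SD arrays of *XTH15* nearly coincide, and its log2 FC was 3.44 ± 0.12 (adjusted p = 9.02e-07).

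Enzymes of amino acid and fat breakdown were also among the 15 largest rises of named genes. *AT1G21400*, the E1 alpha subunit of the branched-chain keto acid dehydrogenase, had 9.93, 10.20 and 10.24 on the WT SD arrays, against 7.17, 7.17 and 7.64 on the WT LL arrays, with a log2 FC of 2.80 ± 0.19. *ICL* (AT3G21720), the isocitrate lyase of the glyoxylate cycle, had 11.87, 11.96 and 12.01 on the WT SD arrays, against 9.56, 9.21 and 9.77 on the WT LL arrays, with a log2 FC of 2.43 ± 0.18. In both genes the lowest WT SD array lay far above the highest WT LL array. *BETA-TIP* (AT1G17810), a tonoplast aquaporin known from seeds, had 8.71, 9.28 and 8.80 on the WT SD arrays, against 5.99, 6.42 and 6.21 on the WT LL arrays. *PIL1* (AT2G46970), a bHLH protein related to the PIFs and a marker of shade, was the most uneven of the 15 within WT SD. Its signal was 8.92, 7.68 and 8.73 on the WT SD arrays, against 5.79, 5.88 and 5.59 on the WT LL arrays. WT SD replicate 2 of *PIL1* was the low one but still lay above the WT LL arrays, and the log2 FC was 2.69 ± 0.33 (adjusted p = 0.000632). *HB-2* (AT4G16780), a homeodomain-leucine zipper regulator of the shade response, had 8.39, 7.90 and 8.09 on the WT SD arrays, against 5.56, 5.49 and 5.61 on the WT LL arrays, with a log2 FC of 2.57 ± 0.28. *PORA* (AT5G54190), the protochlorophyllide oxidoreductase that accumulates in dark-grown seedlings, had 6.08, 5.63 and 5.28 on the WT SD arrays, against 3.50, 3.02 and 3.21 on the WT LL arrays, with a log2 FC of 2.42 ± 0.29. The other 6 were *AT1G19540* (2.98), *AT5G14470*, which RefSeq lists as galactokinase 2 (2.81), *AT4G25580* (2.61), *AT5G44260*, the zinc finger protein TZF5 (2.58), *AT1G73120* (2.50) and *AT4G27450* (2.40), all given as log2 FC. Among probe sets without a gene name here, 13365263 had the largest rise, with 10.96, 11.57 and 11.51 on the WT SD arrays, against 7.67, 7.23 and 8.07 on the WT LL arrays. Its log2 FC of 3.69 ± 0.25 was exceeded by those of *ST2A* and *BCAT-2* alone, and it was singled out after its values had been seen.

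The largest fall was that of *AT2G15020*, a gene to which no function is given here. Its signal was 4.04, 3.16 and 3.64 on the WT SD arrays, against 7.83, 7.74 and 7.85 on the WT LL arrays, a change of 18.3 fold with a log2 FC of -4.19 ± 0.33 (adjusted p = 4.75e-05). *PPT2* (AT3G01550), a phosphoenolpyruvate/phosphate translocator of the plastid envelope, had 4.79, 5.21 and 4.96 on the WT SD arrays, against 8.88, 8.80 and 8.90 on the WT LL arrays. *LOX2* (AT3G45140), the plastid lipoxygenase that opens jasmonate synthesis, had 5.08, 5.39 and 4.96 on the WT SD arrays, against 8.94, 9.07 and 8.85 on the WT LL arrays. *PPT2* was 14.6-fold lower in WT SD, with a log2 FC of -3.87 ± 0.17, and *LOX2* 14.1-fold lower, with -3.81 ± 0.27. *TT4* (AT5G13930), the chalcone synthase that starts the flavonoid pathway, had 4.88, 5.60 and 5.23 on the WT SD arrays, against 8.70, 8.94 and 8.81 on the WT LL arrays, with a log2 FC of -3.58 ± 0.18. *BAM3* (AT4G17090), the main beta-amylase of starch breakdown in leaves, had 7.20, 7.07 and 7.18 on the WT SD arrays, against 10.32, 10.24 and 10.13 on the WT LL arrays, with a log2 FC of -3.08 ± 0.12 (adjusted p = 1.37e-06). The replicates of *BAM3* lie close together in both groups.

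The remaining large falls were of varied genes. *EXPB3* (AT4G28250), a beta-expansin, had 6.28, 6.24 and 6.18 on the WT SD arrays, against 9.28, 9.26 and 9.27 on the WT LL arrays, with replicates that nearly coincide and a log2 FC of -3.03 ± 0.22. *AT2G22510*, a hydroxyproline-rich glycoprotein, had a log2 FC of -3.09 ± 0.18, *AT5G59130*, a subtilisin-like protease, -3.06 ± 0.38, and *AT1G60590*, a pectin lyase-like protein, -2.75 ± 0.20. *GPX7* (AT4G31870), which encodes a chloroplast glutathione peroxidase, was at 4.55, 3.82 and 4.33 on the WT SD arrays, against 7.44, 7.30 and 7.02 on the WT LL arrays, with a log2 FC of -3.02 ± 0.23. *BBX30* (AT4G15248), a small B-box protein of light signalling, was at 3.16, 2.07 and 3.56 on the WT SD arrays, against 5.85, 6.23 and 5.49 on the WT LL arrays. WT SD replicates 1 and 2 of it lie in that dim range, and its log2 FC of -2.92 ± 0.47 had the largest SE of the 30 genes. The others were *AT5G24155* (-3.09), the cytochrome P450 *AT3G44970* (-2.82), *ECS1* (AT1G31580) (-2.71) and *AT2G32550* (-2.70).

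**Figure D2:**
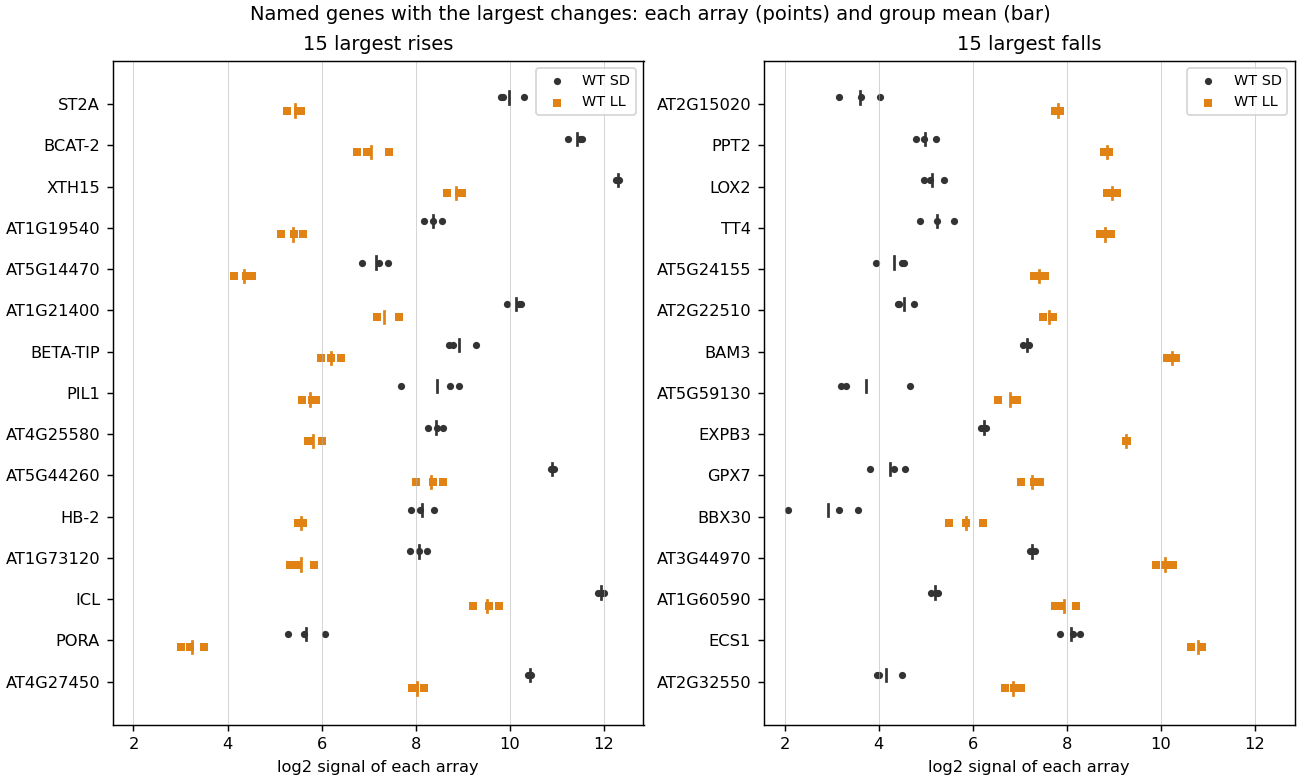
Log2 signal of each WT array (x axis) for the 15 named genes with the largest rises (left) and the 15 with the largest falls (right), with WT SD as dark circles above WT LL as orange squares and the group mean as a bar. In none of the 30 genes do the WT SD and WT LL arrays overlap; BBX30, AT5G59130 and PIL1 have the widest spread in WT SD.

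Gene classes were described through 42 lists with 727 genes, of which 293 were measured under a name. Below, "measured" means measured under a name, and other members can be among the probe sets that have none here. A probe set has its name either from the platform annotation (16528 tested) or only from a gene list published with the study (1028 tested). That list holds genes the authors called, and 80.1% of the probe sets named only by it were called here, against 7.02% of those named by the platform (3.48% higher and 3.53% lower). Lists are therefore counted first over all named members and then over the platform-named ones, and only the count over the platform-named ones can be read against 7.02%. The lists were chosen with earlier results of these data known, so such a reading is a description and no share was tested. No platform-named member was called in glucosinolate synthesis (1 measured), cytokinin (2), the cell cycle (1), heat shock proteins (3), antioxidant enzymes (3), iron homeostasis (2) or cuticle synthesis (2). The lists of trehalose phosphate metabolism, B-box proteins, brassinosteroid, jasmonate, cellulose synthases, aquaporins and plastid lipid synthesis have no platform-named member. Neither have those of carotenoid and plastid isoprenoid synthesis, chloroplast regulators and nitrogen assimilation. The members of all these lists have a name because the authors called them. Their counts therefore have no background to be read against and do not describe the class. The median log2 FC was -0.01 over all probe sets tested and 0.00 over the platform-named ones.

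**Figure D3:**
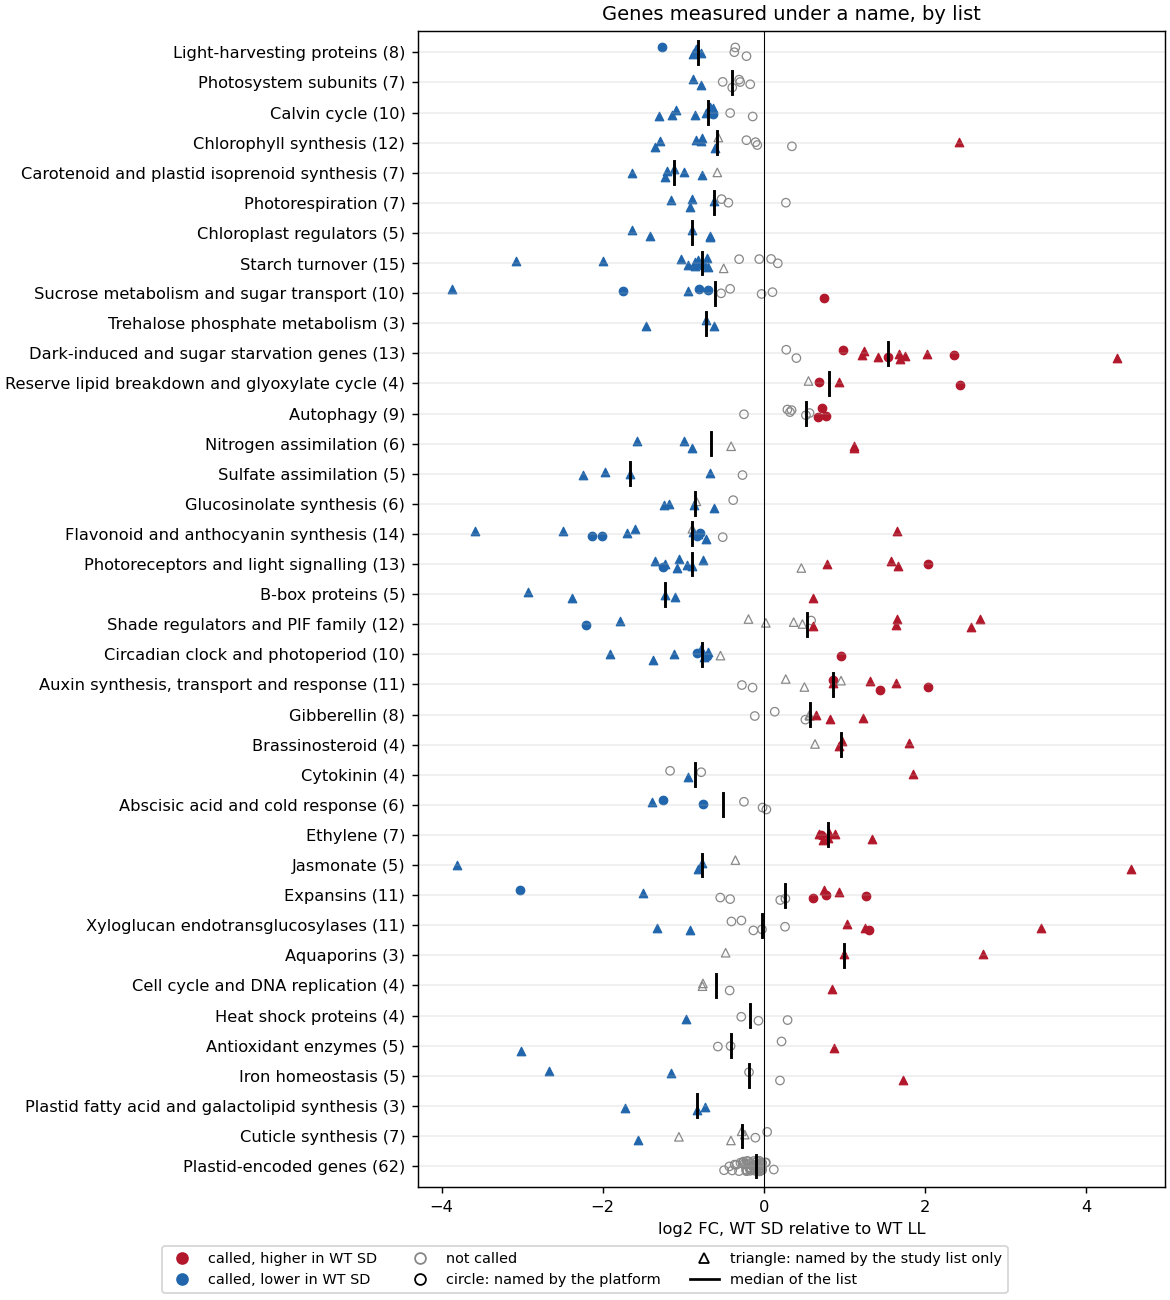
Log2 FC, WT SD over WT LL (x axis), for the members measured under a name of each list with at least 3 of them (number in brackets) and for the plastid-encoded genes. Filled red and blue symbols were called higher and lower, open grey ones were not called, circles were named by the platform and triangles only by the list published with the study, and black bars are medians. The dark-induced genes lie to the right of 0 and the chloroplast lists to the left, whereas the plastid-encoded genes cluster at 0.

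Of the genes listed as switched on by darkness or sugar starvation, most of those measured under a name rose. Of 13 measured, 11 rose, none fell and 2 did not pass, with a median log2 FC of 1.54 (3 of the 5 platform-named ones rose, median 0.98). Next to *BCAT-2*, *MCCB* (AT4G34030), a subunit of the methylcrotonyl-CoA carboxylase of leucine breakdown, was at 9.30, 9.63 and 9.54 on the WT SD arrays, against 7.09, 7.08 and 7.23 on the WT LL arrays, with a log2 FC of 2.36 ± 0.18. *BCE2* (AT3G06850), the E2 subunit of the branched-chain keto acid dehydrogenase, rose by 1.68 ± 0.14, *IVD* (AT3G45300), the isovaleryl-CoA dehydrogenase, by 1.69 ± 0.17 and *LKR* (AT4G33150), the bifunctional enzyme of lysine breakdown, by 1.54 ± 0.13 on the log2 scale. *ETFQO* (AT2G43400), which passes electrons from these dehydrogenases to ubiquinone, rose by 0.98 ± 0.13, and *D2HGDH* (AT4G36400), a dehydrogenase that feeds the same route, had 0.28 ± 0.15 (adjusted p = 0.354). *ASN1* (AT3G47340), the asparagine synthetase of dark-treated plants, was at 12.57, 12.67 and 12.75 on the WT SD arrays, against 10.69, 10.43 and 10.82 on the WT LL arrays, with a log2 FC of 2.02 ± 0.13. *DIN2* (AT3G60140), a beta-glucosidase, *ERD5* (AT3G30775), the proline dehydrogenase, and the dormancy-associated *DRM1* (AT1G28330) and *DRM2* (AT2G33830) rose by 1.76, 1.41, 1.25 and 1.22. The regulator *BZIP53* (AT3G62420) had 0.40 ± 0.10 and stayed under 1.5 fold. The count of 11 was found again in each of the 12 fits without 1 array. Most of these genes have a name because the authors called them on the same arrays, so this repeat adds no support for the class.

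Called genes of reserve lipid breakdown and autophagy were higher in WT SD as well. Of 4 measured genes of lipid breakdown and the glyoxylate cycle 3 rose (both platform-named ones). Beside *ICL* these were *ACX4* (AT3G51840), an acyl-CoA oxidase of peroxisomal beta-oxidation (0.93 ± 0.10), and *SDP1* (AT5G04040), the lipase that opens stored oil (0.68 ± 0.12), whereas *MLS* (AT5G03860), the malate synthase next to *ICL* in the cycle, had 0.55 ± 0.17 (adjusted p = 0.0725). Of 9 measured ATG8 genes, which encode the ubiquitin-like proteins on the autophagosome membrane, 3 rose and none fell, with a median of 0.52, and all 9 are named by the platform. *ATG8E* (AT2G45170) was at 8.24, 8.40 and 8.10 on the WT SD arrays, against 7.41, 7.55 and 7.45 on the WT LL arrays, *ATG8B* (AT4G04620) at 6.32, 6.39 and 6.48 in WT SD, against 5.51, 5.78 and 5.74 in WT LL and *ATG8F* (AT4G16520) at 10.71, 10.94 and 10.91 in WT SD, against 10.16, 10.11 and 10.26 in WT LL. *ATG8A* (AT4G21980) and *ATG8I* (AT3G15580) passed the adjusted p alone, with 0.57 ± 0.15 and 0.52 ± 0.14, and *ATG8D* (AT2G05630) was the only one below 0, with -0.25 ± 0.14.

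Called genes of the photosynthetic apparatus were all lower in WT SD, by modest amounts. Most of them are named only by the list of genes the authors called. The platform-named members had medians of -0.36 (light-harvesting proteins) and -0.31 (photosystem subunits). Their few calls, given in brackets below, stand beside 7.02% over all platform-named probe sets. Of 8 measured light-harvesting proteins 5 fell (1 of 4 platform-named), with a median log2 FC of -0.81, and all 8 values were below 0. *LHCB4.3* (AT2G40100), a minor antenna protein of photosystem II, was at 3.77, 4.22 and 4.04 on the WT SD arrays, against 5.48, 5.42 and 4.93 on the WT LL arrays, with a log2 FC of -1.27 ± 0.20. *LHCA5* (AT1G45474), *LHCB7* (AT1G76570), *LHCB1.2* (AT1G29910) and *LHCA6* (AT1G19150) fell by 0.88, 0.86, 0.85 and 0.78, while the abundant *LHCB1.5* (AT2G34420) had -0.37 ± 0.11 (adjusted p = 0.0614). The LHCB1 genes and the small subunit genes of Rubisco are near-identical copies, and a probe set of one can also bind the others. Of 7 measured photosystem subunits 2 fell (none of 5 platform-named), *PSBS* (AT1G44575), which senses excess light, by 0.78 ± 0.12 and *PSB28* (AT4G28660) by 0.87 ± 0.19. The call of *PSB28* was lost without any of 5 WT arrays, WT SD replicates 1 and 3 and the 3 WT LL replicates (adjusted p 0.0512 to 0.0719). All 7 photosystem values were below 0.

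In the Calvin cycle 8 of 10 measured genes fell (1 of 3 platform-named), with a median of -0.69. The platform-named ones alone had a median of -0.42. *CP12-2* (AT3G62410), the small protein that binds 2 enzymes of the cycle in darkness, was at 7.34, 7.43 and 7.22 on the WT SD arrays, against 8.54, 8.77 and 8.59 on the WT LL arrays, with a log2 FC of -1.30 ± 0.16. *RBCS1B* (AT5G38430), a small subunit of Rubisco, fell by 1.14 ± 0.18, *EMB3119* (AT3G04790), a ribose 5-phosphate isomerase, by 1.09 ± 0.13 and *SBPASE* (AT3G55800), the sedoheptulose bisphosphatase, by 0.64 ± 0.09. *RCA* (AT2G39730), the Rubisco activase, passed the adjusted p alone with -0.42 ± 0.09, and *PRK* (AT1G32060), the phosphoribulokinase, had -0.14 ± 0.14 (adjusted p = 0.67). In photorespiration 4 of 7 fell (none of 3 platform-named). *PGLP1* (AT5G36700), the phosphoglycolate phosphatase at its start, fell by 1.15 ± 0.11. *SHM1* (AT4G37930) and *GLDP1* (AT4G33010), which act with the mitochondrial glycine decarboxylase, fell by 0.91 ± 0.12 and 0.90 ± 0.10. *GLYK* (AT1G80380), the glycerate kinase at its end, had 0.27 ± 0.15 (adjusted p = 0.371).

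In pigment synthesis 12 of 19 measured genes fell, 1 rose and 6 were not called. Of 12 measured genes of chlorophyll synthesis 6 fell, 1 rose and 5 did not pass (none of 4 platform-named was called), with a median of -0.58. The platform-named ones alone had a median of -0.09, and all called members are named only by the list of genes the authors called. The falls included *DVR* (AT5G18660), the divinyl reductase (-1.36 ± 0.20), *PORC* (AT1G03630), the light-dependent oxidoreductase of green tissue (-1.29 ± 0.23), *CHLI1* (AT4G18480) and *GUN5* (AT5G13630), subunits of magnesium chelatase (-0.84 ± 0.12 and -0.76 ± 0.09), *CAO* (AT1G44446), the oxygenase that makes chlorophyll b (-0.77 ± 0.10), and *HEMA1* (AT1G58290), the first committed enzyme of tetrapyrroles (-0.60 ± 0.10). The rise was that of *PORA*, which catalyses the same reaction as *PORC*, and *PORB* (AT4G27440), the remaining oxidoreductase, had 0.35 ± 0.33 (adjusted p = 0.655). Of 7 measured genes of carotenoid and plastid isoprenoid synthesis 6 fell, with a median of -1.12, and none is named by the platform. *ZEP* (AT5G67030), the zeaxanthin epoxidase, was at 9.38, 9.20 and 9.26 on the WT SD arrays, against 10.81, 11.10 and 10.83 on the WT LL arrays. It fell by 1.63 ± 0.13, and *PSY* (AT5G17230), the phytoene synthase that opens the pathway, was at 7.83, 7.92 and 8.02 in WT SD, against 9.06, 9.01 and 9.05 in WT LL and fell by 1.12 ± 0.10. *BCH2* (AT5G52570), *CYP97A3* (AT1G31800), *LUT2* (AT5G57030) and *PDS3* (AT4G14210) fell by 1.22, 1.20, 0.98 and 0.77, and *NPQ1* (AT1G08550), the violaxanthin de-epoxidase that works against *ZEP*, had -0.58 ± 0.13 and stayed under 1.5 fold.

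All 5 measured regulators of the chloroplast fell, again without a platform-named member. All 5 have a name only from the list of genes the authors called, so the count does not describe the class. *CGA1* (AT4G26150), a GATA factor of chloroplast development, fell by 1.64 ± 0.22 and *SIG5* (AT5G24120), the sigma factor induced by blue light, by 1.41 ± 0.12. *SIG5* was at 7.81, 7.72 and 7.72 on the WT SD arrays, against 9.26, 9.16 and 9.06 on the WT LL arrays. *SIG1* (AT1G64860) and *SIG2* (AT1G08540), further sigma factors of the plastid RNA polymerase, fell by 0.90 and 0.67, and *GLK2* (AT5G44190), a transcription factor of photosynthesis genes, by 0.66. The 3 measured genes of plastid fatty acid and galactolipid synthesis fell as well. *FAD8* (AT5G05580), a plastid omega-3 desaturase, was at 7.24, 7.24 and 7.17 on the WT SD arrays, against 8.95, 9.14 and 8.74 on the WT LL arrays, with a log2 FC of -1.73 ± 0.12.

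No transcript of the plastid genome itself was called. All 62 plastid-encoded genes measured under a name are named by the platform, and none was called in limma, against 7.02% of all platform-named probe sets, with an unadjusted p under 0.05 for 2 of them. In an unmoderated linear model 9 had an unadjusted and 1 an adjusted p under 0.05, and with an intensity trend and robust moderation 15 and 2, again without a call. Their log2 FC lay between -0.49 (*psbT* (ArthCp050)) and 0.12, with a median of -0.10. Below 0 were 59 of 62, which was 50 after centring each array on its median and 37 after a further quantile normalization. Their mean signals in WT SD, from 10.39 to 14.45, are among the highest of the arrays. Of 17 mitochondrion-encoded genes, recognised by their symbols, none was called or had an unadjusted p under 0.05 in any of these fits, and their log2 FC lay between -0.07 and 0.13. How well labelling with a 3' IVT kit and signals this high show changes of plastid and mitochondrial transcripts was not tested. The absence of calls therefore does not show that these transcripts are unchanged.

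Called genes of starch turnover fell on both sides of the pathway. Of 15 measured genes of starch turnover 10 fell and none rose (1 of 5 platform-named fell), with a median of -0.77. The platform-named ones alone had a median of -0.06, and most of the falls are of genes named only by the list of genes the authors called. On the side of synthesis, *GBSS1* (AT1G32900), the granule-bound starch synthase, was at 6.94, 6.82 and 6.88 on the WT SD arrays, against 8.93, 8.91 and 8.80 on the WT LL arrays. It fell by 2.00 ± 0.12, and *ADG1* (AT5G48300), the small subunit of ADP-glucose pyrophosphorylase, by 1.03 ± 0.10. The soluble synthases *SS2* (AT3G01180), *SS4* (AT4G18240) and *SS1* (AT5G24300) fell by 0.95, 0.82 and 0.69 and the branching enzymes *SBE2.2* (AT5G03650) and *SBE2.1* (AT2G36390) by 0.77 and 0.71, whereas *SS3* (AT1G11720) had -0.50 ± 0.12 and stayed under 1.5 fold. On the side of breakdown, beside *BAM3*, *LDA* (AT5G04360), the debranching limit dextrinase, fell by 0.86 ± 0.11 and *DPE2* (AT2G40840), the cytosolic disproportionating enzyme, by 0.85 ± 0.19. *PWD* (AT5G26570), *DPE1* (AT5G64860), *APL3* (AT4G39210) and *APL4* (AT2G21590) were not called, with -0.31, 0.17, 0.09 and -0.06.

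Of 10 measured genes of sucrose metabolism and sugar transport 5 fell and 1 rose (3 and 1 of 8 platform-named), with a median of -0.61. *SPSC* (AT4G10120), a sucrose phosphate synthase, was at 7.15, 7.02 and 6.90 on the WT SD arrays, against 8.90, 8.74 and 8.68 on the WT LL arrays, with a log2 FC of -1.75 ± 0.11. *SUS1* (AT5G20830), a sucrose synthase, and *TMT2* (AT4G35300), a tonoplast sugar transporter, fell by 0.94 and 0.81. The SWEET sugar carriers went both ways. *SWEET2* (AT3G14770), on the tonoplast of root cells, was at 8.23, 8.38 and 8.55 on the WT SD arrays, against 9.13, 9.06 and 9.05 on the WT LL arrays, and *SWEET16* (AT3G16690), on the tonoplast as well, at 8.73, 8.41 and 8.69 in WT SD, against 7.88, 7.84 and 7.90 in WT LL. The first fell by 0.69 ± 0.12 and the second rose by 0.74 ± 0.14. *SWEET14* (AT4G25010), outside the list, was at 2.47, 2.81 and 2.75 in WT SD, against 4.14, 4.21 and 4.65 in WT LL and fell by 1.66 ± 0.29, while *SWEET1* (AT1G21460), *SWEET4* (AT3G28007), *SWEET11* (AT3G48740) and *SWEET17* (AT4G15920) were not called. All 3 measured genes of trehalose phosphate metabolism fell. *TPS1* (AT1G78580), which makes the sugar signal trehalose 6-phosphate, was at 7.30, 7.18 and 7.29 on the WT SD arrays, against 8.74, 8.84 and 8.59 on the WT LL arrays, with a log2 FC of -1.47 ± 0.12. *TPPA* (AT5G51460) and *TPPB* (AT1G78090), phosphatases that remove it, fell by 0.72 and 0.62, the second of which lost its call in 8 of the other settings tried.

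Flavonoid synthesis held some of the largest falls. Of 14 measured genes 11 fell, 1 rose and 2 did not pass (4 of 5 platform-named fell, against 3.53% of all platform-named probe sets), with a median of -0.89. The list was chosen with earlier results of these data known, and its share was not tested against the 3.53%. Without WT LL replicate 3 the count of falls was 7. After *TT4*, *F3H* (AT3G51240), the flavanone hydroxylase, had 5.39, 5.31 and 5.54 on the WT SD arrays, against 7.91, 7.73 and 8.08 on the WT LL arrays, with a log2 FC of -2.50 ± 0.14. *DFR* (AT5G42800), the dihydroflavonol reductase of the anthocyanin branch, fell by 2.13 ± 0.44, *CHIL* (AT5G05270), a chalcone isomerase-like protein, by 2.00 ± 0.29, *4CL3* (AT1G65060), a coumarate-CoA ligase, by 1.70 ± 0.36 and *FLS1* (AT5G08640), the flavonol synthase, by 1.59 ± 0.22. Smaller falls were those of *PAL2* (AT3G53260) (-0.88), *TT5* (AT3G55120) (-0.82), *TT7* (AT5G07990) (-0.72) and the glycosyltransferases *UGT75C1* (AT4G14090) (-0.83) and *UGT78D1* (AT1G30530) (-0.79). The member that rose was *MYBL2* (AT1G71030), a MYB protein that represses the pathway. It was at 6.79, 7.30 and 7.15 on the WT SD arrays, against 4.98, 5.66 and 5.62 on the WT LL arrays, with a log2 FC of 1.66 ± 0.21.

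Sulfate assimilation fell at its reductase. Of 5 measured genes 4 fell, with a median of -1.66, and the single platform-named one, *SIR* (AT5G04590), the sulfite reductase, had -0.26 ± 0.13 (adjusted p = 0.287). The falls were those of the 3 adenosine phosphosulfate reductases. *APR2* (AT1G62180) was at 4.99, 5.37 and 5.28 on the WT SD arrays, against 7.38, 7.52 and 7.47 on the WT LL arrays, with a log2 FC of -2.24 ± 0.22. *APR1* (AT4G04610) and *APR3* (AT4G21990) fell by 1.97 ± 0.26 and 1.66 ± 0.33, and the root sulfate transporter *SULTR1.2* (AT1G78000) by 0.67 ± 0.16, which lost its call without any of 3 WT arrays and in the fit of WT arrays alone. Of 6 measured genes of glucosinolate synthesis, the sulfur-rich defence compounds, 4 fell, with a median of -0.85. *CYP79B2* (AT4G39950), which converts tryptophan, fell by 1.23 ± 0.16 and *MYB28* (AT5G61420), a regulator of the aliphatic branch, by 1.17 ± 0.14. In nitrogen assimilation 3 of 6 measured genes fell and 2 rose, and none is named by the platform. The falls were those of *ASN2* (AT5G65010), an asparagine synthetase (-1.58 ± 0.14), *GLU1* (AT5G04140), the ferredoxin-dependent glutamate synthase (-0.99 ± 0.09), and *NIR1* (AT2G15620), the nitrite reductase (-0.89 ± 0.15). The rises were those of *GDH1* (AT5G18170) and *GDH2* (AT5G07440), the glutamate dehydrogenases, which release ammonium when carbon is short. *GDH2* was at 11.41, 11.56 and 11.45 on the WT SD arrays, against 10.27, 10.27 and 10.50 on the WT LL arrays and *GDH1* at 8.22, 8.27 and 8.23 in WT SD, against 7.25, 7.09 and 7.01 in WT LL. *ASN1* and *ASN2* thus moved in opposite directions.

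Genes of photoreceptors and light signalling moved in both directions. Of 13 measured genes 8 fell and 4 rose (1 each of 2 platform-named). *PHYA* (AT1G09570) and both genes of its nuclear import rose. *PHYA* was at 9.84, 9.95 and 9.88 on the WT SD arrays, against 8.30, 7.98 and 8.42 on the WT LL arrays, with a log2 FC of 1.66 ± 0.14. *FHL* (AT5G02200), which with *FHY1* (AT2G37678) carries phytochrome A into the nucleus, was at 6.67, 6.93 and 6.90 on the WT SD arrays, against 4.77, 4.83 and 4.78 on the WT LL arrays. *FHL* rose by 2.04 ± 0.13, *FHY1* by 1.58 ± 0.24 and *PHOT1* (AT3G45780), the blue light receptor of phototropism, by 0.79 ± 0.11. *PHYB* (AT2G18790) had 0.47 ± 0.13 and stayed under 1.5 fold. The falls were of the *COP1* (AT2G32950)/SPA ubiquitin ligase, with *COP1* at -0.76 and *SPA1* (AT2G46340), *SPA3* (AT3G15354) and *SPA4* (AT1G53090) at -0.96, -1.07 and -1.05, and of genes of responses to ultraviolet, blue and strong light, *RUP2* (AT5G23730) (-1.35), *HYH* (AT3G17609) (-1.25), *CRY3* (AT5G24850) (-1.23) and *ELIP2* (AT4G14690) (-0.89). Of 5 measured B-box proteins 4 fell. *BBX32* (AT3G21150) was at 3.69, 3.67 and 3.98 on the WT SD arrays, against 5.98, 6.34 and 6.17 on the WT LL arrays, with a log2 FC of -2.38 ± 0.16, *COL2* (AT3G02380) fell by 1.23, *BBX25* (AT2G31380) was at 9.99, 10.08 and 9.97 on the WT SD arrays, against 11.16, 11.02 and 11.15 on the WT LL arrays, and *BBX28* (AT4G27310) rose by 0.61 ± 0.10.

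Called genes among the shade regulators, with the PIF relative *PIL1*, were higher in WT SD, and the called genes that bear the name PIF were lower. Of 12 measured genes 5 rose and 2 fell, and 5 did not pass (of 2 platform-named, 1 fell). Beside *PIL1* and *HB-2*, *HB4* (AT2G44910), a close relative of *HB-2*, was at 6.86, 6.58 and 6.78 on the WT SD arrays, against 5.02, 4.94 and 5.31 on the WT LL arrays, and *HFR1* (AT1G02340), an atypical bHLH protein that restrains the PIFs, rose by 1.64 ± 0.27. *HAT3* (AT3G60390) rose by 0.61 ± 0.14, and *HAT1* (AT4G17460) and *HAT2* (AT5G47370) were not called, with 0.37 and 0.59. The falls were of *PIF7* (AT5G61270), at 5.03, 5.27 and 4.72 on the WT SD arrays, against 7.18, 7.35 and 7.12 on the WT LL arrays, and *PIF8* (AT4G00050), at 7.85, 7.72 and 7.84 in WT SD, against 9.50, 9.67 and 9.59 in WT LL, with log2 FC of -2.21 ± 0.18 and -1.78 ± 0.12. *PIF1*, *PIF3* and *PIF5* were not called, with 0.03 ± 0.19 (adjusted p = 0.967), 0.48 ± 0.20 (adjusted p = 0.2) and -0.19 ± 0.25 (adjusted p = 0.774), and *PIF4* was not analysed under a name here.

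Most of the measured clock genes fell at dawn in SD relative to subjective dawn. With a single hour of collection, a lower level and a shifted phase of a clock gene cannot be told apart here. Of 10 measured genes of the clock and of photoperiod 8 fell and 1 rose (2 and 1 of 3 platform-named), with a median of -0.76. Morning genes were among them. *CCA1* (AT2G46830) fell by 0.69 ± 0.11, *RVE1* (AT5G17300) by 0.78 ± 0.10, *RVE6* (AT5G52660) by 0.71 ± 0.13 and *LNK1* (AT5G64170) by 0.74 ± 0.17, and *RVE8* (AT3G09600) had -0.54 ± 0.12 and stayed under 1.5 fold. So were genes of the day and evening. *PRR5* (AT5G24470) fell by 1.11 ± 0.16, *GI* (AT1G22770) by 0.82 ± 0.12 and *ELF4* (AT2G40080), a member of the evening complex, was at 3.82, 3.90 and 3.67 on the WT SD arrays, against 5.53, 5.04 and 4.95 on the WT LL arrays. *CDF1* (AT5G62430), which represses flowering genes, was at 4.16, 4.73 and 4.22 on the WT SD arrays, against 6.23, 6.40 and 6.20 on the WT LL arrays, with a log2 FC of -1.90 ± 0.22. Its relative *CDF5* (AT1G69570) was at 7.28, 7.42 and 6.95 in WT SD, against 6.26, 6.24 and 6.27 in WT LL and rose by 0.96 ± 0.12.

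Genes of auxin, gibberellin and brassinosteroid that were called were all higher in WT SD. Of 11 measured auxin genes 6 rose and none fell (3 of 5 platform-named), with a median of 0.86. *IAA29* (AT4G32280), an early auxin response gene, was at 7.30, 6.69 and 7.05 on the WT SD arrays, against 4.94, 4.72 and 5.25 on the WT LL arrays, with a log2 FC of 2.04 ± 0.25. *IAA19* (AT3G15540), *IAA4* (AT5G43700) and *IAA2* (AT3G23030) rose by 1.65, 1.32 and 0.86 and *GH3.3* (AT2G23170) and *GH3.5* (AT4G27260), which conjugate auxin, by 1.44 and 0.86, whereas the synthesis genes *YUC8* (AT4G28720) and *YUC2* (AT4G13260) had 0.50 ± 0.21 and -0.27 ± 0.21 and were not called. Of 8 measured gibberellin genes 3 rose (none of 3 platform-named). These were the synthesis genes *GA20OX1* (AT4G25420) (1.23 ± 0.21) and *GA3OX1* (AT1G15550) (0.65 ± 0.12, under 1.5 fold without WT LL replicate 2) and *GAI* (AT1G14920) (0.82 ± 0.14), a DELLA repressor of the response. Of 4 measured brassinosteroid genes 3 rose, *BEE1* (AT1G18400), a bHLH protein, by 1.80 ± 0.28, *IBH1* (AT2G43060), a bHLH protein that inhibits elongation, by 0.97 ± 0.16 and *CPD* (AT5G05690), a synthesis enzyme, by 0.94 ± 0.11.

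All 7 ethylene genes (synthesis and response) measured under a name rose, 1 of them named by the platform, with a median of 0.80. The others have a name only from the list of genes the authors called, so the count does not describe the class. It was 5 without WT SD replicate 2 and 5 without WT LL replicate 3. *ACS5* (AT5G65800), which makes the ethylene precursor, was at 7.10, 7.05 and 6.76 on the WT SD arrays, against 5.56, 5.61 and 5.73 on the WT LL arrays, and *EIN3* (AT3G20770), the transcription factor of the response, which the platform names, at 10.43, 10.42 and 10.43 in WT SD, against 9.69, 9.76 and 9.70 in WT LL. *HLS1* (AT4G37580), needed for the apical hook, *ERS1* (AT2G40940), a receptor, *EBF2* (AT5G25350), which removes *EIN3*, and the oxidase *ACO4* (AT1G05010) rose by 0.88, 0.81, 0.80 and 0.73. Jasmonate metabolism held both the largest rise and one of the largest falls of the comparison. Of 5 measured genes 3 fell and 1 rose, *LOX2*, *LOX3* (AT1G17420) (-0.82 ± 0.11) and *AOS* (AT5G42650) (-0.77 ± 0.18) on the side of synthesis and *ST2A* on the other. The call of *AOS* was lost without any of 4 WT arrays (adjusted p 0.0650 to 0.106). In cytokinin metabolism *CKX5* (AT1G75450), an oxidase that degrades the hormone, was at 7.80, 7.73 and 7.62 on the WT SD arrays, against 5.76, 5.89 and 5.95 on the WT LL arrays, with a log2 FC of 1.85 ± 0.11, and the response regulator *ARR4* (AT1G10470) fell by 0.93 ± 0.14. *ARR15* (AT1G74890) and *ARR16* (AT2G40670) had -0.78 ± 0.27 and -1.16 ± 0.33 and were not called. Of 6 measured genes of abscisic acid and cold 3 fell (2 of 5 platform-named), *RD29B* (AT5G52300) by 1.39 ± 0.13, *KIN2* (AT5G15970) by 1.25 ± 0.20 and *COR15A* (AT2G42540) by 0.76 ± 0.17, which was not called without WT SD replicate 2 or 3 or without WT LL replicate 1 or 2, while *KIN1* (AT5G15960), *COR15B* (AT2G42530) and *COR47* (AT1G20440) had -0.25, -0.02 and 0.03.

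Families of wall enzymes held members that moved in opposite directions. Of 11 measured expansins 5 rose and 2 fell (3 and 1 of 8 platform-named), with a median of 0.27. *EXLA2* (AT4G38400) was at 7.82, 7.63 and 7.62 on the WT SD arrays, against 6.43, 6.36 and 6.47 on the WT LL arrays, with a log2 FC of 1.27 ± 0.17. *EXPA11* (AT1G20190), *EXLA1* (AT3G45970), *EXPA3* (AT2G37640) and *EXPA8* (AT2G40610) rose by 0.93, 0.78, 0.75 and 0.61, and *EXPA1* (AT1G69530), at 7.02, 6.63 and 6.95 in WT SD, against 8.33, 8.46 and 8.31 in WT LL, fell with *EXPB3*. The count of rises was 3 without any 1 of 5 WT arrays, WT SD replicates 1 and 3 and the 3 WT LL replicates. Of 11 measured xyloglucan endotransglucosylases 4 rose and 2 fell (1 and 0 of 6 platform-named). *XTH33* (AT1G10550), *XTH30* (AT1G32170) and *XTH8* (AT1G11545) rose by 1.30, 1.26 and 1.03 next to *XTH15*, and *XTH6* (AT5G65730) and *XTH7* (AT4G37800) fell by 1.33 and 0.91. *CESA5* (AT5G09870), the single cellulose synthase measured under a name, fell by 0.95 ± 0.15. Of 3 measured aquaporins 2 rose, *BETA-TIP* and the plasma membrane channel *PIP2.3* (AT2G37180) (1.00 ± 0.16). Of 4 measured cell cycle genes, *CYCD1.1* (AT1G70210), a D-type cyclin, rose by 0.85 ± 0.10, and *PCNA1* (AT1G07370), *CYCA1.1* (AT1G44110) and *MCM7* (AT4G02060) of DNA replication and the S phase had -0.76, -0.76 and -0.42 and were not called.

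Metal and redox genes moved singly. *FRO6* (AT5G49730), a ferric reductase of green tissue, was at 5.46, 5.26 and 4.76 on the WT SD arrays, against 7.90, 7.91 and 7.66 on the WT LL arrays, with a log2 FC of -2.66 ± 0.17, and *FRO7* (AT5G49740), the chloroplast ferric reductase, fell by 1.16 ± 0.16. *FER1* (AT5G01600), a ferritin that stores iron in plastids, was at 10.88, 11.41 and 11.31 on the WT SD arrays, against 9.39, 9.42 and 9.59 on the WT LL arrays and rose by 1.73 ± 0.19. The iron regulators *PYE* (AT3G47640) and *BHLH101* (AT5G04150) were not called, with -0.18 and 0.20. *CAT3* (AT1G20620), a catalase, rose by 0.87 ± 0.11 against the fall of *GPX7*, and the ascorbate peroxidases *SAPX* (AT4G08390) and *TAPX* (AT1G77490) passed the adjusted p alone with -0.57 and -0.41. Of 4 measured heat shock proteins 1 fell, *HSP70* (AT3G12580) (-0.97 ± 0.17). Of 7 measured cuticle genes 1 fell, *LACS2* (AT1G49430), an acyl-CoA synthetase of cutin (-1.56 ± 0.19).

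Markers of tissues that a whole seedling can hold in varying amounts were compared as well. Of 10 root markers 2 were measured under a name, *PYK10* (AT3G09260) and *EXPA7* (AT1G12560). Neither was called, and their log2 FC lay on opposite sides of 0, the lower at -0.25 and the higher at 0.32. Their mean signal, in which these cancel in part, was 10.28 to 10.37 on the WT SD arrays and 10.28 to 10.29 on the WT LL arrays. Of 5 measured seed reserve and late embryogenesis genes *OLEO3* (AT5G51210), an oil body protein, rose by 1.26 ± 0.25 with 5.53, 4.96 and 4.56 on the WT SD arrays, against 3.77, 3.88 and 3.63 on the WT LL arrays. The mean signal of the 5 was 5.20 to 5.61 in WT SD and 5.01 to 5.09 in WT LL, and *CRU2* (AT1G03890), a storage protein, had a log2 FC of -0.01. The part of these genes in the rises of *ICL* and *BETA-TIP* was not tested. The 3 bHLH proteins that drive successive steps of the stomatal lineage were all lower in WT SD, but 1 was called. *MUTE* (AT3G06120) had 3.66, 3.43 and 3.14 on the WT SD arrays, against 4.10, 4.50 and 4.06 on the WT LL arrays, with a log2 FC of -0.81 ± 0.21 (adjusted p = 0.0407). *FAMA* (AT3G24140) had -0.57 ± 0.11 (adjusted p = 0.0104) and *SPCH* (AT5G53210) -0.48 ± 0.14 (adjusted p = 0.0596). The call of *MUTE* was lost in 14 of the other settings tried. The epidermal *PDF1* (AT2G42840) had 0.03. Of the 5 measured markers of epidermis and guard cells 2 lay above 0, the highest at 0.51, and neither was called. Without WT LL replicate 3, 1 of the 5 was called higher and 1 lower. In whole seedlings fewer cells of a type and less RNA per cell cannot be told apart.

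Families with at least 10 platform-named members, found by the stem of the symbol, are given with their share of calls, which is 7.02% over all platform-named probe sets, and were picked from 27 families after their values had been seen. Of 32 serine carboxypeptidase-like genes 5 fell and none rose (15.6%), among them *SCPL49* (AT3G10410) with 9.29, 9.10 and 9.15 on the WT SD arrays, against 10.08, 10.17 and 9.95 on the WT LL arrays. Of 22 beta-glucosidases with the stem BGLU 4 fell and none rose (18.2%). The beta-glucosidase *DIN2*, which rose, has another symbol here and is not counted among them. *BGLU40* (AT1G26560) was at 6.58, 6.15 and 6.24 on the WT SD arrays, against 8.62, 8.80 and 8.48 on the WT LL arrays, with a log2 FC of -2.31 ± 0.18, and *BGLU28* (AT2G44460), *BGLU19* (AT3G21370) and *BGLU33* (AT2G32860) fell by 1.71, 1.18 and 0.69. Of 52 UGT glycosyltransferases 4 rose and 2 fell (11.5%), and *UGT84A3* (AT4G15490) was at 5.29, 5.02 and 5.41 on the WT SD arrays, against 3.85, 4.17 and 3.98 on the WT LL arrays. Of 16 PRA1 proteins of membrane traffic 2 rose, and *PRA1.B6* (AT5G07110) was at 9.89, 9.99 and 9.92 on the WT SD arrays, against 8.85, 8.85 and 8.98 on the WT LL arrays, while 9 of 10 VPS proteins lay above 0 without a call (median 0.25). Of the LCR defensin-like genes 1 of 63 was called, of the CLE peptides 0 of 16 and of the GSTU glutathione transferases 0 of 11, and an unadjusted p under 0.05 in limma was found for 4 CLE and 2 GSTU genes. No share of a family was tested against the 7.02%. By chromosome, the share of platform-named probe sets called was 6.48% to 7.35% on the 5 nuclear chromosomes.

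Whether the night response of WT differs from that of *pifq* was tested in the same fit, as the response of WT minus that of *pifq*. Of 38113 probe sets 58 (0.152%) were called, 52 with a higher and 6 with a lower value in WT. *ST2A* had a log2 FC of 4.55 ± 0.16 in WT and 0.81 ± 0.16 in *pifq*, a difference of 3.74 ± 0.23 (adjusted p = 0.000196). For *XTH15* the values were 3.44 ± 0.12 and 0.46 ± 0.12 (adjusted p = 0.000196 for the difference), and for *CKX5* 1.85 ± 0.11 and -0.21 ± 0.11 (adjusted p = 0.00133). *AT3G44970* fell more in WT, with -2.82 ± 0.12 in WT and -1.10 ± 0.12 in *pifq* (adjusted p = 0.00793). These 4 differences were called in each of the 12 fits without 1 array, but the count of 58 was not stable and ranged from 6 to 26 in those fits. Of the 30 genes with the largest changes, 5 had a called difference, *ST2A*, *XTH15*, *PIL1*, *HB-2* and *AT3G44970*. These genes were chosen by their response in WT, which is one term of the difference, so the count of 5 is a description. Of the genes given above outside the fixed rule for naming, *EXPA8* and *PRA1.B6* also had a called difference, of 1.58 and 1.20. For the other 25 of the 30 genes the test did not pass, and *BCAT-2* had 4.38 ± 0.22 in WT and 3.24 ± 0.22 in *pifq* (adjusted p = 0.324), *TT4* -3.58 ± 0.18 and -3.18 ± 0.18 (adjusted p = 0.912) and *AT2G22510* -3.09 ± 0.18 and -3.16 ± 0.18 (adjusted p = 0.999). A difference that did not pass does not show that the responses are equal.

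**Figure D4:**
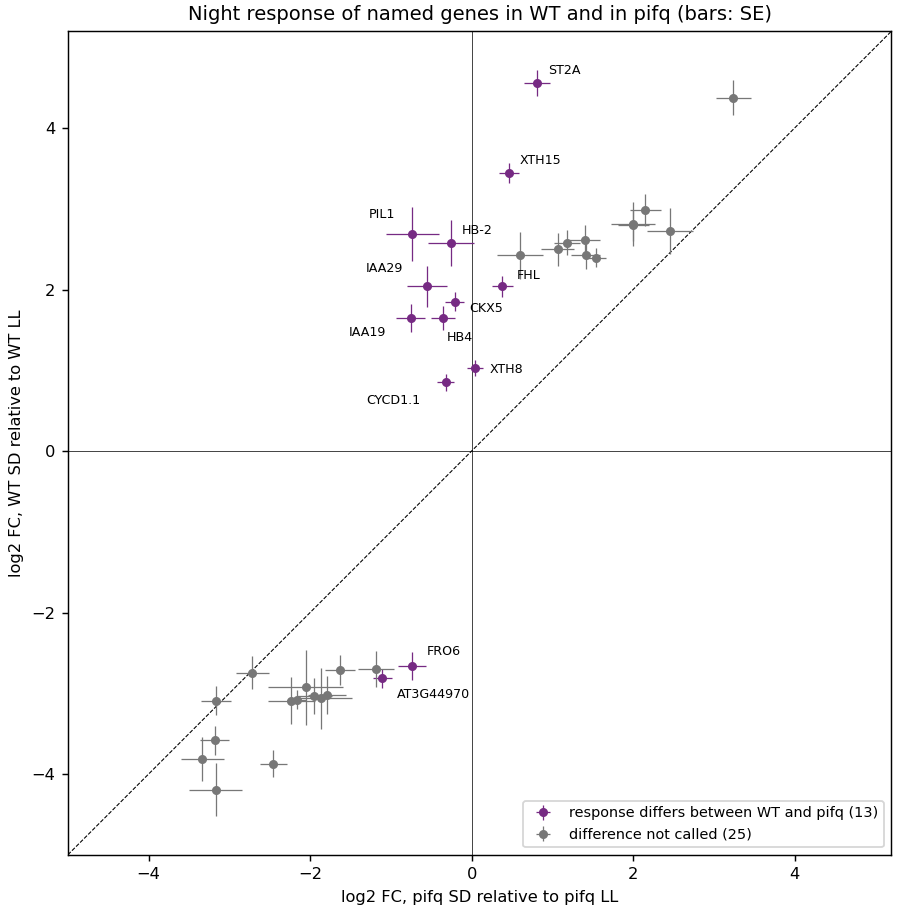
Log2 FC of SD relative to LL in WT (y axis) against that in pifq (x axis), with SE as bars, for the 30 genes with the largest changes in WT and 8 further genes of the fixed lists whose responses differ. Purple genes (13) have a called difference and lie away from the dashed line of equal response; grey genes (25) do not have one.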

How the data were processed

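RNA of whole seedlings was labelled with a 3' IVT kit and hybridised to 1 AraGene 1.0 ST array per sample. The authors deposited log2 signals made with RMA, which corrects background, normalizes arrays by quantiles and summarizes each probe set, of a version that the sources do not give. For the study's own calls its methods name another test, an error-weighted analysis of variance in Rosetta Resolver, which could not be run here.

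Of 38408 probe sets, 98 controls and 197 second probe sets of a named gene (the brightest was kept) were left out. Names came from the platform annotation, updated through RefSeq (TAIR10.1, 16662 matched), otherwise from the first 1999 rows held here of the gene list published with the study. The 759 probe sets of several genes and 8 with disagreeing names got none, and 20557 tested probe sets have no single name here. Since the build behind the arrays is not given in the sources used here, no coordinates are printed. The values of 7102 tested probe sets equal those of another on all 12 arrays, which leaves 32602 distinct sets. The authors' fold changes and p values in that list were not used.

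All 12 arrays were fitted with limma 3.58.1 (R 4.3.3), 1 mean per group, with moderated variances and Benjamini-Hochberg adjustment over all 38113 probe sets, and single adjusted p values come from that fit. The fit was tested on simulated data. The 6 *pifq* arrays add to the estimate of the spread. The members and gene lists were chosen with earlier results of these data known. Genes named are the 15 largest rises and falls, from each list its 4 called members (or fewer) of smallest adjusted p, and members needed to say which did not pass. Further list members, families and the unnamed probe set were chosen after their values were seen. The array medians were 5.00 to 5.12, and no scaling was added. The number of arrays limits the precision. The labels name biological replicates but no scan date or batch. They name MS medium and the methods another one. A few measured genes and families are not reported here.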

Additional observations from a re-analysis of the deposited data

Results flagged for a closer look

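For 13 of the 142 genes named by the rule, the response to the night differed between WT and *pifq* in a test of the difference itself, at the same threshold as elsewhere. The 142 genes were chosen by their response in WT, which is one term of the difference, so this count cannot be read against the share over all probe sets. The differences, as the log2 FC of WT minus that of *pifq*, were 3.74 for *ST2A*, 2.98 for *XTH15*, 2.06 for *CKX5* and -1.71 for *AT3G44970*, and these 4 were called in all 12 fits without 1 array. They were 2.40 for *IAA19*, called in 10 of the 12 fits, 2.00 for *HB4*, called in 9, and 1.66 for *FHL*, called in 6. The remaining differences were called in 2 fits or fewer. They were 1.17 for *CYCD1.1* (adjusted p 0.0444 to 0.102 over these fits), -1.92 for *FRO6* (0.0328 to 0.0995), 2.60 for *IAA29* (0.0303 to 0.114), 3.42 for *PIL1* (0.0128 to 0.103), 2.83 for *HB-2* (0.00485 to 0.126) and 0.98 for *XTH8* (0.0759 to 0.126, called in none). In *pifq* the log2 FC was -0.76 ± 0.17 for *IAA19*, -0.55 ± 0.25 for *IAA29* and -0.35 ± 0.15 for *HB4*, and all 3 rose in WT.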

How the results depend on the processing

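The counts of probe sets called in WT kept within 1.5 times under other normalizations, filters, variance models, choices of probe sets and fits without 1 array. They were 2204 with the 6 WT arrays alone and 1918 to 2641 without 1 array, of which 965 to 1235 were higher and 940 to 1406 lower. A requirement of 2 fold left 940, with 429 higher and 511 lower. Median centring turned the majority, with 1380 higher and 1131 lower, and shifted the median log2 FC to 0.03. The higher calls were also the more numerous after repeated quantile normalization (1262 and 1248), with no fold requirement (1675 and 1659) and without WT LL replicate 2 (978 and 940).

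The count of probe sets whose response differs between WT and *pifq* was 58, but 208 among probe sets brighter than the median one, 200 with an intensity trend and robust moderation, and 6 to 26 without 1 array, with the cause not tested. Of the other settings, the replicate block gave 33. Over all probe sets tested, the deviations of WT SD and WT LL arrays with the same replicate number correlated by 0.037, -0.039 and -0.012. A pairing that touches only some probe sets was not tested. With the replicate block 2455 probe sets were called in WT.

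Of the 142 named genes 132 kept their call in all settings in which they were fitted, and none changed direction. Calls were lost in at least 1 setting for *AOS*, *COR15A*, *CYP79B3* (AT2G22330), *GA3OX1*, *GLDH1* (AT2G35370), *MUTE*, *PSB28*, *SBPASE*, *SULTR1.2* and *TPPB*, most often for *MUTE* (14 settings, adjusted p up to 0.158) and *CYP79B3* (11 settings). List counts without 1 array, added after seeing the data, moved by over 1.5 times for the photosystems, expansins and flavonoids as given above, and for lists with 1 call or none in that direction (antioxidant enzymes, cuticle, cytokinin, B-box proteins, cell cycle, epidermis). Weak signals limit what could be called.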
